A study of Mus musculus with 7 samples.

Results

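The 10 genes described here are the members of the mouse Nlrp family, other than Nlrp5, that are known for expression in the oocyte: Nlrp2, Nlrp4a, Nlrp4b, Nlrp4c, Nlrp4e, Nlrp4f, Nlrp9a, Nlrp9b, Nlrp9c and Nlrp14. They were found by symbol among the 26586 genes of the deposited count table, which held all 10. The table covers 7 single preimplantation embryos of the C57BL/6 background, all morulae of 3 d.p.c. (days after mating) flushed from the oviduct or uterus of females in an L13a(+/-) intercross. Both parents of each embryo were thus heterozygous for L13a, listed as Rpl13a, a gene for a ribosomal protein of the large subunit. All 7 embryos were untreated and form 1 group, numbered 1 to 7, without any label for genotype, sex, litter or batch. Groups were therefore not compared. Nothing says that the embryos came from separate litters, so any p-value speaks only to how these 7 samples vary, and that variation may be technical. Because each library is a whole embryo, fewer cells that hold a transcript and less of it per cell cannot be told apart.

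Nlrp proteins are NOD-like receptors with an amino-terminal pyrin domain, a nucleotide-binding NACHT domain and leucine-rich repeats. Some members, such as Nlrp3, assemble inflammasomes in immune cells, whereas a branch that expanded in rodents is transcribed mainly in the growing oocyte. The oocyte stores these messenger RNAs and proteins, and much maternal RNA is degraded after fertilization while the genome of the embryo is switched on. Nlrp5, also named MATER, is the founding member of the subcortical maternal complex, a protein assembly under the membrane of the oocyte that the cleaving embryo needs.

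The libraries differed widely in depth and in kind. Total counts ran from 139619 in embryo 6 to 33123742 in embryo 4, a 237-fold range, and genes with a count ran from 1749 to 12064. CPM are counts per 1000000 counts of the library. Taking 3 counts as the limit, a gene with 0 counts may thus stand at up to 21.5 CPM in embryo 6. In embryo 4 it may stand at only up to 0.0906 CPM. Such limits, and the bounds on fold differences drawn from them, cover counting error only. Rpl13a had between 1 and 17558 counts. A list of 10 genes that mark the lineages of the embryo, such as Pou5f1 of pluripotent cells and the trophectoderm keratin Krt8, had 0 counts in embryos 1 and 6 and 15 counts in embryo 3, against 136202 in embryo 4. All 10 were counted in embryo 4, 6 in embryo 2, 5 in embryo 7 and 3 each in embryos 3 and 5. Markers of the labelled stage were therefore not detected in embryos 1 and 6. Transcripts of 17 oocyte genes, such as those of the egg coat, summed to between 601 and 21658 CPM in 6 embryos and to 17.4 CPM in embryo 4.

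Of the 10 Nlrp genes, 9 were counted in at least 1 embryo, and none was counted in all 7. Of all genes in the table, 56.3% had a count in at least 1 embryo and 1.64% in every embryo. Nlrp4f was counted in 6 embryos and Nlrp14 in 5. Nlrp4a, Nlrp4e and Nlrp9a were counted in 4 embryos each, Nlrp9b and Nlrp9c in 3, Nlrp4b in 2 and Nlrp4c in 1. Nlrp2, a maternal-effect gene in mice, had 0 counts in all 7 libraries, which allows up to 0.0906 CPM in the deepest library and up to 21.5 CPM in the shallowest. The same 9 genes reached a mean of 1 CPM over the embryos, the minimum for the test of spread. That minimum can be met through 1 high embryo alone, as Nlrp4c did.

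**Figure D1:**
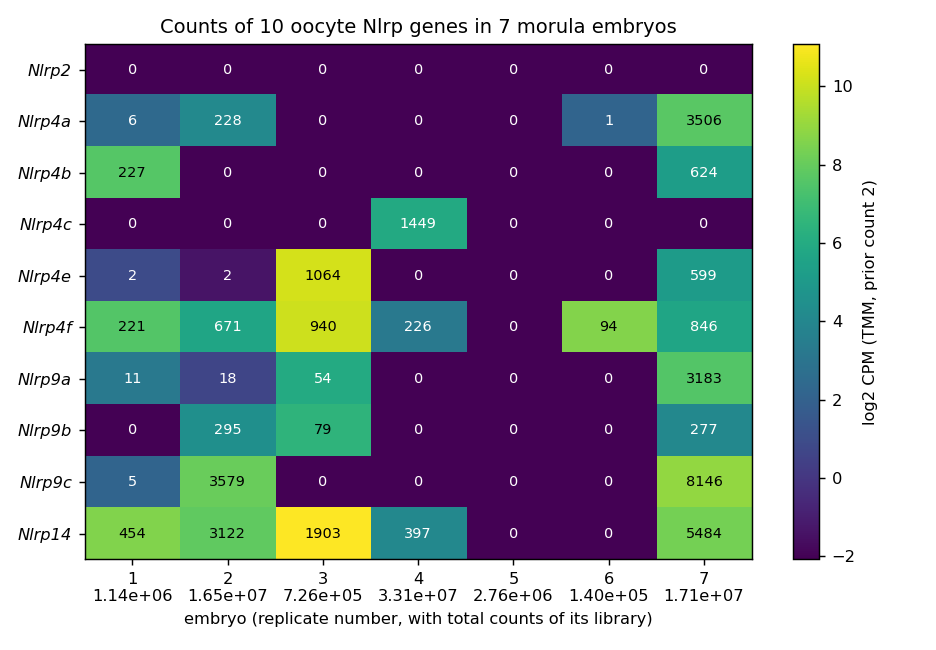
Counts of the 10 Nlrp genes (rows) in the 7 embryos (columns, with the total counts of each library), with the colour giving log2 CPM after TMM scaling with a prior count of 2. Embryo 5 is empty, embryo 7 holds counts for 8 genes, and Nlrp4c is filled in embryo 4 alone.

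By embryo, 7 of the members were counted in embryo 1, 7 in embryo 2, 5 in embryo 3, 3 in embryo 4, 0 in embryo 5, 2 in embryo 6 and 8 in embryo 7. The shares of all genes with a count were 19.3%, 35.3%, 13.1%, 45.4%, 12.7%, 6.58% and 33.7% in the same order. Among the 11810 genes of a mean of 1 CPM or more, which include 9 of the members, the shares were 41.7%, 72.1%, 29.0%, 84.0%, 27.7%, 14.8% and 69.5%. Summed over the 10 members and the embryos, 32 of 70 possible values were above 0, or 45.7%. The share over those 11810 genes was 48.4%, but they leave out Nlrp2, which had 0 counts in every embryo. Nlrp2 lowers the share of the members, so the lower value shows no deficit of the family. Embryo 4 had the deepest library and the most genes with a count, but only 3 of the 10 Nlrp genes. After every library was thinned to 139619 counts, the members counted were 6, 4, 5, 1, 0, 2 and 8 in embryos 1 to 7, so embryo 7 kept the most and embryo 5 kept none.

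Nlrp14 stood highest per length. In the mouse, it is needed in the oocyte for the embryo to pass its first cleavages. It had 454, 3122, 1903, 397, 0, 0 and 5484 counts in embryos 1 to 7. As CPM these were 397 (95% exact Poisson interval 361 to 435), 189.8 (183 to 197), 2622 (2506 to 2743), 12 (10.8 to 13.2), 0, 0 and 320.3 (312 to 329). The intervals of the 5 embryos with counts did not overlap. Embryo 3 stood 6.61-fold above embryo 1, the next highest, and 219-fold above embryo 4. With the limit of 3 counts per library in place of 0, CPM in embryo 5 were lower than in embryo 3 by at least 2416-fold. In the shallow embryo 6 they were lower by at least 122-fold. These bounds cover counting error only. Embryo 5 had counts for 3388 genes in a total of 2764409, fewer than the 3486 genes of embryo 3 in 725729. Its total may therefore overstate how well a transcript could be detected. Its median was 53.6 CPM per kilobase of exon over the 7 embryos, and its mean log2 CPM was 5.12 ± 5.33 (SD, n = 7).

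Nlrp4f, which associates with the subcortical maternal complex in mouse oocytes, came next, with a median of 12.8 CPM per kilobase. Its counts were 221, 671, 940, 226, 0, 94 and 846. These gave 193 (169 to 220.4), 40.8 (37.8 to 44.0), 1295 (1214 to 1381), 6.82 (5.96 to 7.77), 0, 673 (544 to 824) and 49.4 (46.1 to 52.9) CPM. It was the member counted in the most embryos, and the only Nlrp gene of the 10 with more than 1 count in embryo 6. Embryo 3 was again highest, 1.92-fold above embryo 6 and 189.8-fold above embryo 4. Its mean log2 CPM was 5.54 ± 4.03 (SD, n = 7), which differed from that of Nlrp14 by far less than either SD. The other members had medians per kilobase of 1.08 CPM for Nlrp4a, 0.314 CPM for Nlrp9a, 0.0358 CPM for Nlrp4e and 0 for Nlrp2, Nlrp4b, Nlrp4c, Nlrp9b and Nlrp9c. Whether neighbours in this order differ within embryos was not tested, so the order describes these medians only. Each counted member varied between embryos by an SD of 3.02 to 5.33 on the log2 scale.

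Within the Nlrp4 branch, each of the remaining genes was highest in a different embryo, although Nlrp4a, Nlrp4b and Nlrp4e were all counted in embryo 7. Nlrp4e, whose depletion in fertilized mouse eggs halts early cleavage, had 2, 2, 1064, 0, 0, 0 and 599 counts. It thus reached 1466 CPM (1379 to 1557) in embryo 3 and 35.0 CPM (32.2 to 37.9) in embryo 7, a 41.9-fold difference, and the deep library of embryo 4 held none. Nlrp4a had 6, 228, 0, 0, 0, 1 and 3506 counts, with 205 CPM (198 to 212) in embryo 7 and 13.9 CPM (12.1 to 15.8) in embryo 2. Nlrp4b had 227 counts in embryo 1, which is 198 CPM (173 to 226), 624 counts in embryo 7, which is 36.4 CPM (33.6 to 39.4), and 0 in the other 5.

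Nlrp4c was counted in embryo 4 alone. It had 1449 counts in embryo 4, which is 43.7 CPM (41.5 to 46.1), and 0 counts in each of the other 6 embryos. By counting error alone, the level in embryo 4 was at least 249.7-fold higher than in embryo 7. It was at least 239.9-fold higher than in embryo 2, and these are the other 2 deep libraries. Against the shallower embryos the bound was weaker, at least 40.3-fold for embryo 5, 16.7-fold for embryo 1, 10.6-fold for embryo 3 and 2.04-fold for embryo 6. Embryo 4 is also the library with the highest counts of lineage genes, including 1294 CPM of Krt8, 513 CPM of Pou5f1 and 105 CPM of the trophectoderm factor Cdx2. The part of that difference in the Nlrp4c value was not tested.

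Summed, the Nlrp9 genes stood at 678 CPM in embryo 7, 237 CPM in embryo 2, 183 CPM in embryo 3 and 14.0 CPM in embryo 1. Nlrp9b is known in the mouse as an antiviral sensor of the intestinal epithelium, and all of the Nlrp9 genes are transcribed in the oocyte. Nlrp9c had 5, 3579, 0, 0, 0, 0 and 8146 counts, with 476 CPM (465 to 486) in embryo 7 and 218 CPM (210.5 to 225) in embryo 2. Embryo 7 stood 2.19-fold above embryo 2 and, by counting error alone, at least 5253-fold above embryo 4. Nlrp9a had 11, 18, 54, 0, 0, 0 and 3183 counts, with 186 CPM (179 to 192) in embryo 7, 74.4 CPM (55.9 to 97.1) in embryo 3 and 1.09 CPM (0.648 to 1.73) in embryo 2. Nlrp9b had 0, 295, 79, 0, 0, 0 and 277 counts, with 109 CPM (86.2 to 136) in embryo 3, 17.9 CPM (15.9 to 20.1) in embryo 2 and 16.2 CPM (14.3 to 18.2) in embryo 7, of which the last 2 have overlapping intervals. Embryo 3 therefore held Nlrp9a and Nlrp9b but 0 counts of Nlrp9c, and embryos 4, 5 and 6 held none of the Nlrp9 genes.

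Paralogs of this kind can share reads, so the sequence they share bears on how far their counts can be told apart. Every stretch of 50 bases in the transcripts of each member was looked up in all other mouse transcripts of GENCODE release M21. The share of stretches found in another of the 10 genes was 8.98% for Nlrp4e, 7.71% for Nlrp4c, 6.07% for Nlrp9a, 5.48% for Nlrp9b, 2.61% for Nlrp9c, 1.32% for Nlrp4a, 0.0719% for Nlrp4f and 0 for Nlrp2, Nlrp4b and Nlrp14. Against any gene, the share was 36.7% for Nlrp4e, most of it with predicted genes such as Gm16443 and Gm4541, both listed at 0 counts in all embryos. Nlrp4c shared 10.7% with any gene, Nlrp9b 7.79%, Nlrp4a 2.63% and Nlrp2 2.39%, while Nlrp9a and Nlrp9c had the same shares as within the family. Nlrp4f shared 5.95% with any gene, in large part with the pseudogene Nlrp4g of chromosome 9. Nlrp4g had 886 counts in embryo 2, 13 in embryo 7, 2 in embryo 1 and 0 elsewhere. How long the reads were, and what was done with reads of several matches, is not known here.

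The longest identical stretches within the family are shown with their flanks, since they are where a read cannot be assigned. Nlrp9a and Nlrp9b share 129 bases, at chr7:26557535-26557687 and chr7:20023416-20023568 on the plus strand of GRCm38 with 12 flanking bases on each side. Nlrp4c and Nlrp4e share 120 bases, at chr7:6060703-6060846 and chr7:23301390-23301533, also on the plus strand. All lie within 1 coding exon of each gene, and capitals mark the identical part.
Nlrp9a: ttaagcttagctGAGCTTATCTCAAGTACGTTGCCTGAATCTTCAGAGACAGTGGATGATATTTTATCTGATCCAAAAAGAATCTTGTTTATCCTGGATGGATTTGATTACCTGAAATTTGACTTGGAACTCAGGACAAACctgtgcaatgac
Nlrp9b: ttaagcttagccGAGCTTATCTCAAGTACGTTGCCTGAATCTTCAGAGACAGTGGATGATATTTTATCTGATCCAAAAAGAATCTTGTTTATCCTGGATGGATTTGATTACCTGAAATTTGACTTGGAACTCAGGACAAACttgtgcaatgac
Nlrp4c: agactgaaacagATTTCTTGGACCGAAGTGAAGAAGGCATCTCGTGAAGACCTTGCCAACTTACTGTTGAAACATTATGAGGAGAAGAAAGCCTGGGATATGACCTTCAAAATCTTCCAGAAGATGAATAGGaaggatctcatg
Nlrp4e: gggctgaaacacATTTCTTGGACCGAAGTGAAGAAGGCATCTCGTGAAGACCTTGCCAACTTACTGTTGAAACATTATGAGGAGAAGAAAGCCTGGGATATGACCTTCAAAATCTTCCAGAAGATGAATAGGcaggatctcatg

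The pair with the most shared sequence within the family was counted in separate embryos. Nlrp4c had its 1449 counts in embryo 4, where Nlrp4e had 0, and Nlrp4e had 1064 and 599 counts in embryos 3 and 7, where Nlrp4c had 0. Nlrp9b and Nlrp9c share up to 113 identical bases and Nlrp9a and Nlrp9c up to 84, yet embryo 3 had 79 counts of Nlrp9b, 54 of Nlrp9a and 0 of Nlrp9c. In embryo 2, Nlrp9c had 3579 counts, Nlrp9b 295 and Nlrp9a 18. Nlrp14 and Nlrp4b share no 50-base stretch with any other gene, so their counts carry no such uncertainty at that length.

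**Figure D2:**
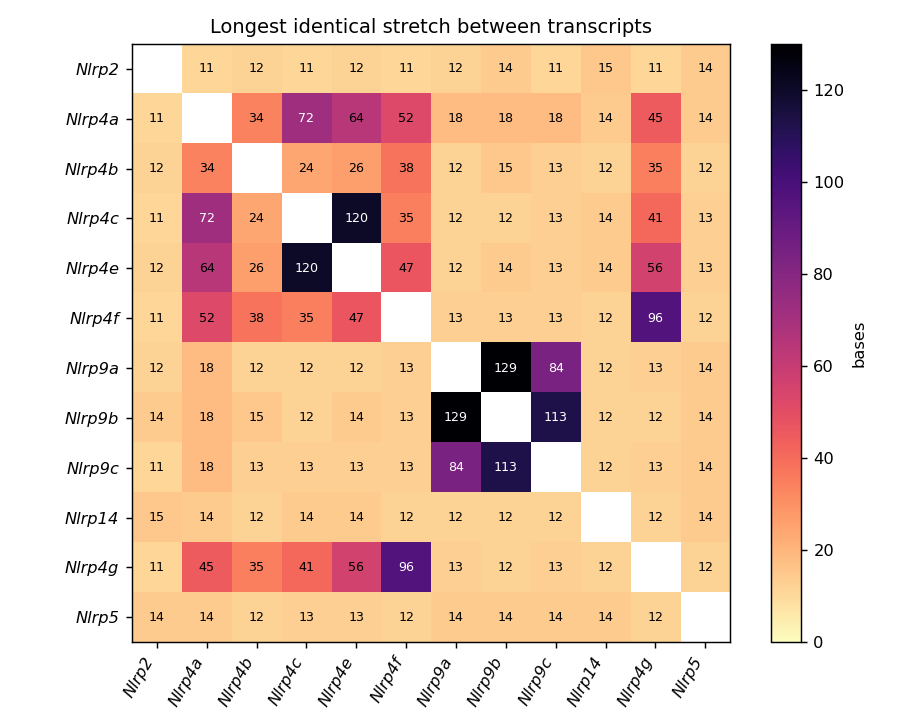
Length in bases of the longest identical stretch between the transcripts of each pair of genes, for the 10 Nlrp genes, the pseudogene Nlrp4g and Nlrp5, with darker cells for longer stretches. Nlrp9a with Nlrp9b (129 bases) and Nlrp4c with Nlrp4e (120 bases) stand out, whereas Nlrp2, Nlrp14 and Nlrp5 share at most 15 bases with any gene drawn.

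Summed over the 10 genes, the family had 926, 7915, 4040, 2072, 0, 95 and 22665 counts in embryos 1 to 7. As a level this was 809.5 CPM (758 to 863), 481 CPM (471 to 492), 5567 CPM (5396 to 5741), 62.6 CPM (59.9 to 65.3), 0 CPM, 680.4 CPM (551 to 832) and 1324 CPM (1307 to 1341). Embryo 3 was highest, followed by embryos 7, 1, 6, 2, 4 and 5, and the intervals overlapped only for the neighbours 1 and 6. After TMM scaling embryo 2 moved above embryo 6, with log2 sums of 9.22 and 8.67, and in the deposited log2 table embryo 6 moved above embryo 1, with 9.31 and 9.26. Embryos 3 and 7 led, and embryos 4 and 5 were lowest, under TMM factors, DESeq2 size factors, library totals and the deposited log2 values alike. Likewise, each of the 9 counted members had its highest value in the same embryo under all of these scalings.

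Embryo 4, the library with the most genes counted, thus had a low Nlrp level. At 62.6 CPM it was exceeded 89.0-fold by embryo 3 and 21.2-fold by embryo 7. Embryo 5 had 0 counts of the family in 2764409, and embryo 7 stood at least 1219.8-fold above it by counting error alone. The log2 sum varied with an SD of 4.68 over the 7 embryos and of 1.90 without embryo 5. In embryo 6, 94 of the 95 counts came from Nlrp4f.

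**Figure D3:**
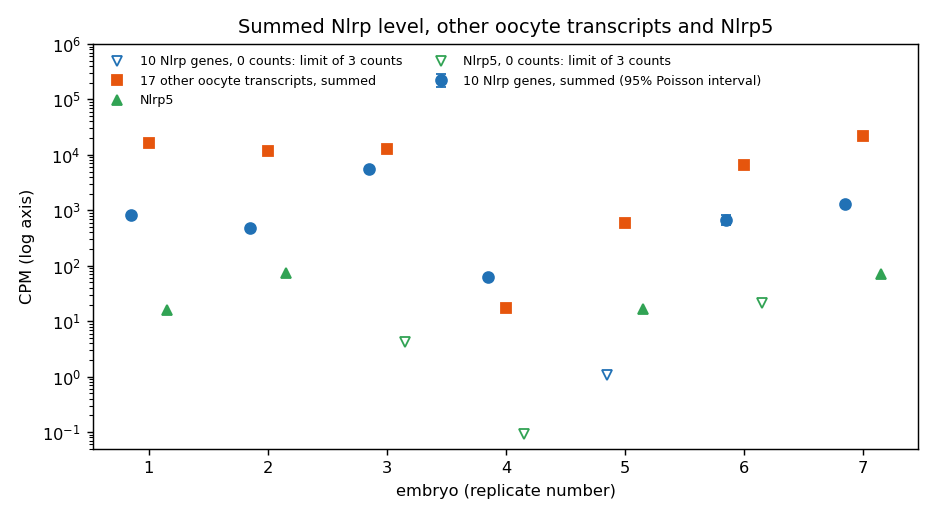
Summed CPM (log axis) of the 10 Nlrp genes (circles, with 95% Poisson intervals), of 17 other oocyte transcripts (squares) and of Nlrp5 (triangles) in the 7 embryos, with open triangles at the limit of 3 counts where a value was 0. The Nlrp sum lies below the other oocyte transcripts in 6 embryos and above them in embryo 4, at 62.6 CPM against 17.4 CPM.

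Set against other oocyte RNA, the family was a small share in most embryos and the larger share in embryo 4. Of the counts of the family and the 17 oocyte transcripts together, the family made up 4.72% (95% Clopper-Pearson interval 4.43 to 5.02) in embryo 1, 3.92% (3.83 to 4.0) in embryo 2, 30.4% (29.6 to 31.2) in embryo 3, 78.2% (76.6 to 79.8) in embryo 4, 0 (up to 0.222) in embryo 5, 9.27% (7.56 to 11.2) in embryo 6 and 5.76% (5.69 to 5.83) in embryo 7. Being a ratio within a library, this share does not depend on scaling between libraries. The summed oocyte transcripts were 16346, 11801, 12735, 17.4, 601, 6661 and 21658 CPM in the same order. Embryos 3 and 4 therefore reached high shares in different ways, embryo 3 with 5567 CPM of the family beside 12735 CPM of other oocyte RNA, and embryo 4 with 62.6 CPM beside 17.4 CPM. Embryo 5 was the reverse, with 601 CPM of other oocyte transcripts, of which 577 CPM was the oocyte transcript Omt2b, and 0 counts of the Nlrp genes.

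The composition of the family also changed from embryo to embryo. Nlrp14 took 49.0% (45.8 to 52.3) and 47.1% (45.6 to 48.7) of the Nlrp counts in embryos 1 and 3, against 19.2% (17.5 to 20.9) in embryo 4. Nlrp9c took 45.2% (44.1 to 46.3) and 35.9% (35.3 to 36.6) in embryos 2 and 7, and at most 0.54% in the other embryos with Nlrp counts. Nlrp4c took 69.9% (67.9 to 71.9) in embryo 4 and 0 elsewhere, and Nlrp4f took 98.9% (94.3 to 99.97) in embryo 6 and 23.9% or less elsewhere. These are shares of counts, which favour longer transcripts, so the change of a share between embryos can be read but not the order of genes within an embryo.

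**Figure D4:**
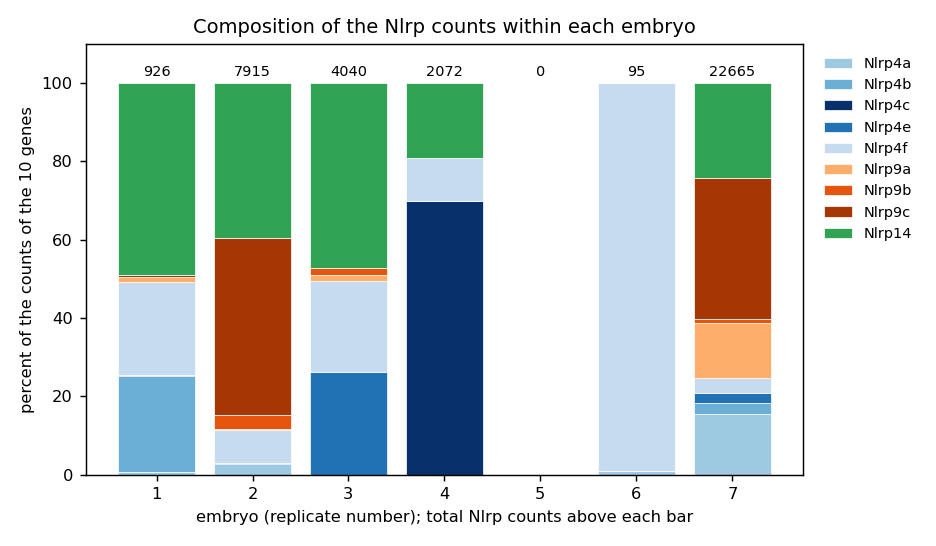
Percent of the Nlrp counts of each embryo that came from each gene, with the Nlrp4 branch in blue, the Nlrp9 branch in orange and Nlrp14 in green, and the number of Nlrp counts above each bar. The Nlrp9 branch takes 49.2% in embryo 2 and 51.2% in embryo 7 and at most 3.29% elsewhere.

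Taken by branch, the Nlrp4 genes held 49.2% of the Nlrp counts in embryo 1, 11.4% in embryo 2, 49.6% in embryo 3, 80.8% in embryo 4, 100% of 95 counts in embryo 6 and 24.6% in embryo 7. The Nlrp9 genes held 1.73%, 49.2%, 3.29%, 0, 0 and 51.2% in the same embryos. Embryos 1 and 3 thus had similar branch shares although their summed levels differed, at 809.5 and 5567 CPM, and so did embryos 2 and 7 for the Nlrp9 branch. Embryos 1 and 3 differed in the genes within the Nlrp4 branch, since Nlrp4b took 24.5% in embryo 1 and 0 in embryo 3, and Nlrp4e took 0.216% in embryo 1 and 26.3% in embryo 3.

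No member passed the test of spread, and neither did any other gene. The test asks whether the dispersion of a gene over the 7 embryos exceeds that of genes of like abundance (edgeR quasi-likelihood, one-sided, Benjamini-Hochberg adjustment over all 11810 genes). Of the 9 members tested 0 were called, and of all genes 0.0% were called. The lowest edgeR adjusted p of any gene was 0.869. A test that set no gene apart cannot decide whether the members vary more than other genes. At an unadjusted p under 0.05 there were 0 of the 9 members and 68 of all genes. DESeq2 called 0 members, and 0 of all 11810 genes, as dispersion outliers. The lowest unadjusted p, 0.0686, was that of Nlrp4e, with an edgeR adjusted p of 0.869. The members had a median SD of log2 CPM of 4.05 (3.02 to 5.33), against 3.63 (0.489 to 6.61) over all genes tested.

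Among the 9 members, Nlrp4c was the only gene whose highest or lowest embryo stood apart by a gap above Dixon's critical value for 7 samples, and 25.3% of all genes tested had such an embryo. Any gene counted in 1 embryo alone has this gap by construction. Its SD, 3.02, was the smallest of the 9, because 6 of its 7 values are the same 0.

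Nlrp5, the oocyte Nlrp gene of the subcortical maternal complex, was counted in other embryos than several of the members. The 10 genes had 926, 7915, 4040, 2072, 0, 95 and 22665 counts beside 18, 1233, 0, 0, 45, 0 and 1227 counts of Nlrp5. There were 51.4 counts of the family per count of Nlrp5 in embryo 1, 6.42 in embryo 2, 18.5 in embryo 7 and 0 in embryo 5, which had Nlrp5 and none of the others. Embryo 3, with the highest level of the family, had 0 counts of Nlrp5, which allows up to 4.13 CPM there. Nlrp5 lies 23612 bases from Nlrp4e on chromosome 7, and the pair was counted together in embryos 1, 2 and 7 alone.

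All 6 genes listed for the subcortical maternal complex, Nlrp5 among them, were counted in at least 1 embryo, and 0 of the 6 passed the test of spread. By mean CPM Zbed3 was the highest, although Khdc3, Tle6 and Ooep exceeded it in embryo 4. It had 10247, 3374, 7277, 6.10, 89.0, 2342 and 21207 CPM in embryos 1 to 7. It was thus low in embryos 4 and 5, where the Nlrp sum was lowest, and highest in embryo 7. Khdc3, listed under its older symbol 2410004A20Rik, was highest in embryo 4, with 2476 CPM against at most 78.6 CPM elsewhere, the same embryo that held Nlrp4c. Tle6, a core member of the complex, had 573, 216, 0, 21.8, 0, 0 and 288 CPM, and Ooep, another core member, had 79.6, 98.8, 8.27, 20.1, 0, 0 and 154 CPM.

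Of 20 other genes of the Nod-like receptor class, most of them known from innate immunity, 9 had a count in at least 1 embryo, where 56.3% of all genes did. Of these, 7 reached a mean of 1 CPM and 0 passed the test. Beside Nlrp4g, the counted genes were Nlrp3, Nlrp12, Nlrx1, Nlrc4, Nod1, Nod2, Naip5 and Ciita. Ciita, the transactivator of MHC class II genes, was the highest, at 679 CPM in embryo 3, with 5 counts in embryo 7 and 0 elsewhere. Nlrp3 had 80 counts in embryo 7, 19 in embryo 4 and 6 in embryo 2. Of 6 partners of the inflammasome, the adaptor Pycard had 1002 counts in embryo 4 and 378 in embryo 2, Casp4 had 9 in embryo 2, and Casp1, Gsdmd, Il1b and Il18 had 0 in every embryo.

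Of 7 transcription factors of the oocyte, 6 had a count in at least 1 embryo, 4 reached a mean of 1 CPM and 0 passed the test. Taf4b was the highest by mean and was counted in 6 embryos, with 112, 118, 9.65, 15.6, 13.7, 0 and 147 CPM. Nobox, a homeobox factor needed for oocyte gene expression, had 12, 4 and 2072 counts in embryos 1, 3 and 7, and Lhx8 had 13, 100 and 1529 counts in embryos 1, 2 and 7. Figla, an E-box binding factor of the oocyte, was counted in embryo 4 alone, with 130 counts.

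Markers of other cells of the reproductive tract were counted in some of the libraries. A list of 7 genes of oviduct and uterus summed to 1153, 1721, 0, 45.7, 1.81, 4340.4 and 215 CPM in embryos 1 to 7. By mean CPM the secreted lipocalin Lcn2 was the highest, with 1490 CPM in embryo 6, where Wfdc2 stood at 1690 CPM. Lcn2 was also exceeded by Ovgp1 in embryo 1, Muc1 in embryo 4 and Ltf in embryo 7. The sum came from Lcn2, Ltf, Wfdc2, Ovgp1 and Muc1, which are secreted or epithelial products. Of the transcription factors on the list, Pax8 of secretory cells had 2 counts and Foxj1 of ciliated cells 1 count, both in embryo 2, and each had 0 in the other 6. Embryo 3, with the highest Nlrp sum, had 0 counts of all 7. Of 8 markers of cumulus and granulosa cells, Amhr2 was counted, from 0 to 459 CPM with the highest value in embryo 3, and Amh, Fshr, Cyp19a1, Has2, Ptgs2, Inhba and Foxl2 were at 0 in all 7. Blood and immune markers summed to between 0 and 129 CPM, the top being Csf1r in embryo 6, with Cd68 and S100a8 at 0. The part of these cells in the Nlrp values was not tested beyond that.

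On the build GRCm38, 8 of the members lie on the proximal part of chromosome 7. From Nlrp2, at chr7:5298547-5351035, to the end of Nlrp9a, at chr7:26535023-26575615, they span 21.3 Mb. In between are Nlrp4c (chr7:6045161-6105150), Nlrp4b (chr7:10687789-10730168), Nlrp9b (chr7:19991465-20073306), Nlrp4e (chr7:23301192-23362277), Nlrp9c (chr7:26322473-26403700) and Nlrp4a (chr7:26435113-26476142). Nlrp14 lies apart at chr7:107166990-107198102 and Nlrp4f at chr13:65177111-65205977. The 428 other genes of the table inside the 21.3 Mb were counted in at least 1 embryo at a share of 41.8%, or 179 genes, below the 56.3% of all genes. Many are vomeronasal receptor genes, such as Vmn1r70 and Vmn1r71 on both sides of Nlrp4b, which had 0 counts.

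Nlrp9c, Nlrp4a and Nlrp9a stand next to each other within 0.253 Mb, with 0 other genes of the table between them. Embryo 7 held the highest value of each, at 476 CPM for Nlrp9c, 205 CPM for Nlrp4a and 186 CPM for Nlrp9a. In embryo 2 the same neighbours had 218, 13.9 and 1.09 CPM, and in embryo 3 they had 0, 0 and 74.4 CPM. Adjacent genes were therefore high together in embryo 7 and apart in embryos 2 and 3. Nlrp9b has Ceacam20 at a distance of 361 bases, which had 741, 665, 205, 488, 0, 0 and 6769 counts beside 0, 295, 79, 0, 0, 0 and 277 counts of Nlrp9b. Overlap with other annotated genes was taken between whole gene spans, introns included. By this measure, genes on the opposite strand overlap Nlrp2 and Nlrp9b. Nlrp4b, Nlrp4e and Nlrp9b are each overlapped by a gene on the same strand, which for Nlrp4b is annotated as intronic. Whether exons of these pairs overlap, so that a read could belong to both, was not tested, and strand use is not given.

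Some genes in this cluster share sequence at their starts, and 5 promoter windows are shown for that reason. Each runs from 250 bases before to 50 bases after a start (RefSeq, GRCm38.p6). RefSeq windows were at hand for 9 of the 10 members, 11 windows in all, with none for Nlrp14. Nlrp4a and Nlrp4b each have another window that is not printed, for Nlrp4a the upstream chr7:26434863-26435162. Letters searched on both strands were CANNTG, the E-box, which reads the same on either strand, TAATTA and TAATTG, which homeobox factors bind, and TATAAA. Capitals mark each CANNTG. The windows are Nlrp4a (chr7:26435364-26435663, plus strand), Nlrp4b (chr7:10687543-10687842, plus strand), Nlrp4c (chr7:6044911-6045210, plus strand), Nlrp9a (chr7:26534773-26535072, plus strand) and Nlrp9c (chr7:26403651-26403950, minus strand).
Nlrp4a: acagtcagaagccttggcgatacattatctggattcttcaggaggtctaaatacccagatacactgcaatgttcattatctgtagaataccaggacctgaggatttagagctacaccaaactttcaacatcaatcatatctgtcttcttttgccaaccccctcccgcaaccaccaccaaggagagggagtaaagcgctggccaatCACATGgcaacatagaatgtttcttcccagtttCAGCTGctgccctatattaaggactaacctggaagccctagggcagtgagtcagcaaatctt
Nlrp4b: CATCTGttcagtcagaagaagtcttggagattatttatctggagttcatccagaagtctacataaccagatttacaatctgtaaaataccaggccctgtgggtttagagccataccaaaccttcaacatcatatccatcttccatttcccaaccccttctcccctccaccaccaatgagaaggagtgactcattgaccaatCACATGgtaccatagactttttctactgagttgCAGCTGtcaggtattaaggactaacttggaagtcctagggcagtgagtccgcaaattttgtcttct
Nlrp4c: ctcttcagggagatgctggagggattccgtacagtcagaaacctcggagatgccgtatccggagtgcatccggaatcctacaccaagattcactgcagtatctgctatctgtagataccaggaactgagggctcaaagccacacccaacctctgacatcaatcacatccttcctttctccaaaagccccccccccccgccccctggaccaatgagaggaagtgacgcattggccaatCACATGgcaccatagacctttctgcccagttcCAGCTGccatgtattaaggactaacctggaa
Nlrp9a: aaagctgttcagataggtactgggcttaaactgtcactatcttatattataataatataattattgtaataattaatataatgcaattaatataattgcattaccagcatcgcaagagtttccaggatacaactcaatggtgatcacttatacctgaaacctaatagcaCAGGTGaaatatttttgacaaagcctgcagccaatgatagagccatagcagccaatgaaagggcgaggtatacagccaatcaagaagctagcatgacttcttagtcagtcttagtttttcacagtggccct
Nlrp9c: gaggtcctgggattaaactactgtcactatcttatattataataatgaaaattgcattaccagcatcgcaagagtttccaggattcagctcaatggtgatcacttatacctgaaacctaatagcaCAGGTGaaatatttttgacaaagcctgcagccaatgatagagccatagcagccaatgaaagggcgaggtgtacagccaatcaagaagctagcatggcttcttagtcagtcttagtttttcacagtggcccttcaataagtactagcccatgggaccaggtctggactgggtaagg

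An E-box was found in 8 of the 9 members with a window, and in 72.3% of the 32851 windows of all genes. TAATTA was found in 1 member (5.29% of all windows), TAATTG in 2 (8.0%) and TATAAA in 1 (13.6%). In the printed windows of Nlrp4a, Nlrp4b and Nlrp4c, CACATG is followed by CAGCTG, their first bases lying 33, 33 and 32 bases apart. The other Nlrp4a window lacks the pair. This pair was chosen after the sequences were seen, and 1.34% of all windows hold it. The 3 genes with the pair were counted in unlike embryos: Nlrp4a and Nlrp4b together in 2, Nlrp4a and Nlrp4c together in 0, and Nlrp4b and Nlrp4c together in 0.

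Local alignment of the 11 windows showed how far the similarity runs. The window of Nlrp9a and that of Nlrp9c had 93.0% identical positions over 244 aligned columns, and both hold CAGGTG. Among the printed Nlrp4 windows, identity was 76.0% over 296 columns for Nlrp4a with Nlrp4b, 74.1% over 278 for Nlrp4a with Nlrp4c and 74.0% over 281 for Nlrp4b with Nlrp4c. The start of the Nlrp4f window, on another chromosome, had 83.3% identical positions over 84 columns with the end of a second Nlrp4b window. Other starts were not alike. The alignment score was 205 for Nlrp9a with Nlrp9c and 133 for the printed windows of Nlrp4a and Nlrp4b. The windows of Nlrp2, Nlrp4e and Nlrp9b scored at most 15 with any other member, and Nlrp9a with Nlrp9b scored 11. The upstream window of Nlrp4a that is not printed scored at most 12. With alike starts, Nlrp9a and Nlrp9c were counted together in 3 of the 4 embryos that held either, but at 74.4 and 0 CPM in embryo 3 and at 1.09 and 218 CPM in embryo 2. The G and C content of the members' windows was 36.0% to 53.0% with a median of 43.0%, below the median of 52.7% over all windows. A match of letters is a description and not a bound site.

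Genes with the most similar pattern over the 7 embryos were sought for Nlrp4f and Nlrp14, the members counted in at least 5 embryos, among 7715 other genes of a mean of 10 CPM or more. Likeness was the root mean square difference of log2 CPM after centring, so a value of 0 means parallel patterns. For Nlrp4f the nearest were Fam126b at 0.55, Celf2, an RNA-binding protein, at 0.81 and Pik3r1, the regulatory subunit of phosphoinositide 3-kinase, at 0.86, where the median gene stood at 5.40. Fam126b had 656, 182, 2195, 19.9, 0.362, 3037 and 293 CPM, beside 193, 40.8, 1295, 6.82, 0, 673 and 49.4 CPM of Nlrp4f. Both were highest in embryos 3 and 6 and lowest in embryo 5.

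Nlrp14 was nearest to 2310061I04Rik at 0.55, Rab3d, a small GTPase of secretory vesicles, at 0.59 and the zinc finger gene Zfp68 at 0.62, with the median gene at 5.30. Nlrp14 had 397, 189.8, 2622, 12, 0, 0 and 320.3 CPM, beside 258, 244, 1784, 5.59, 0, 0 and 559 CPM of Rab3d. Members of the Nlrp family were not among the nearest genes of either. The most alike member was Nlrp9a for both, at 3.76 and rank 598 for Nlrp4f and at 2.89 and rank 487 for Nlrp14. Nlrp4f and Nlrp14 differed from each other by 4.29, and the library of embryo 6 held 94 counts of Nlrp4f and 0 of Nlrp14.

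**Figure D5:**
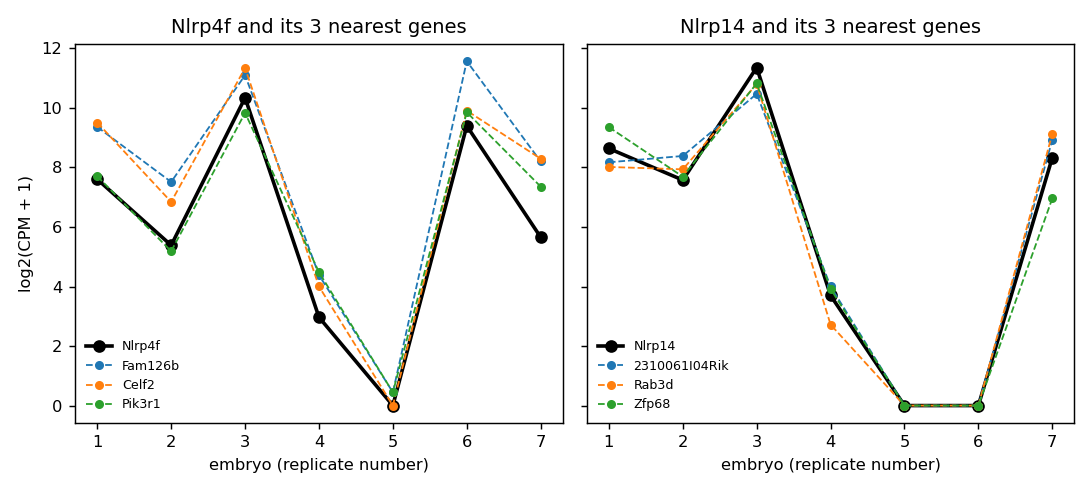
Level as log2(CPM + 1) over the 7 embryos for Nlrp4f (left) and Nlrp14 (right), in black, and for the 3 genes most alike in pattern, dashed, with lines drawn to follow each gene. Nlrp4f and its nearest genes are high in embryo 6, where Nlrp14 and its nearest genes have 0 counts.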

How the data were processed

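Polyadenylated RNA of each embryo was turned into cDNA with SMART-Seq v4 and into libraries with Nextera XT, per the labels' protocols. These libraries hold no molecular identifiers, so intervals and limits cover counting error only. The authors used HISAT2 2.0.5, featureCounts 1.5.0-p2 of Subread, limma and GRCm38 as the genome, per the submitters' processing notes. The sources used here do not give their order, settings, annotation, strand use or read length. The deposited table of whole-number counts is the main source. The deposited log2 values, quantile normalized so that every column runs over the same range, per the values themselves, served as an alternative. Columns were matched to embryos by the number in their names and titles.

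From the counts, CPM were taken over library totals, and log2 CPM with TMM factors and a prior count of 2 (edgeR 4.0.16, R 4.3.3). Genes of mean CPM of 1 or more entered the edgeR test of dispersion, with DESeq2 1.42.0 and limma 3.58.1 as alternatives. The edgeR test was also run on simulated data, and the outcome of that run is not given here. Promoter windows were aligned locally (Smith-Waterman; match 1, mismatch -1, gap -2). Library pairs differed by a chi-square of at least 168 per degree of freedom, so none was a copy. CPM per kilobase used merged exons of GENCODE M21. The named genes were the members, the top gene of each list, and the 3 nearest in pattern; further list genes were named after their values were seen. Members and lists were chosen with earlier results of these data known.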

Additional observations from a re-analysis of the deposited data

Results flagged for a closer look

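Embryo 4 stood apart in Nlrp4c. Its 1449 counts, against 0 in each of the other embryos, left a gap of 1.0 of the whole range of log2 CPM, where the critical value for 7 samples is 0.568. Any gene with counts in 1 embryo alone has a gap of 1.0 by construction, so this adds nothing to the counts themselves. Embryo 5 stood apart at the low end of the summed family, with 0 counts and a gap of 0.597 of the range of log2 sums to embryo 4. That gap was taken with TMM factors, and the prior count of 2 sets the value given to 0 counts. In the deposited log2 values, embryo 5 stood at 0.673, embryo 4 at 3.22 and embryo 3, the highest, at 12.1. Every member in embryo 5 holds the value that the deposited data give to 0 counts, -2.65. The sum of 0.673 is thus set by that floor and is not a measured level. With the deposited values, DESeq2 size factors or library totals, the gap was under the critical value. The share of the family in the pool of family and oocyte counts was highest in embryo 4, at 78.2% against 30.4% in embryo 3, a gap of 0.611 of the range. Chance flags about 1 in 20 groups by this measure when values are normal, whereas 25.3% of all genes tested had such an embryo in these libraries.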

How the results depend on the processing

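The results that summarise the family are the members past the test, their median level and spread, the spread of the summed level, the members detected and the nearest genes. All 54 values of these under the alternatives run moved by less than the spread between embryos or, for counts, by less than 1.5 times. With a median SD of 4.05 on the log2 scale that margin is wide, so staying within it does not show that a value is stable. The members past the test stayed at 0 under every alternative run, as did all genes tested. At an unadjusted p, 1 member had a p under 0.05 with library totals alone (0.0472), without embryo 5 (0.0498) and without embryo 6 (0.0491). The median over the 9 counted members of their mean log2 CPM was 1.46, 0.45 to 2.05 when 1 embryo was left out and 4.94 after thinning to 139619 counts. Their median SD was 3.83 to 4.42 when 1 embryo was left out and 1.59 after thinning, against 4.05. The SD of the summed level was 1.90 to 5.11 when 1 embryo was left out, 1.90 being without embryo 5, and 3.0 after thinning, against 4.68. Member values above 0 numbered 29 with at least 3 counts and 26 after thinning, against 32. The nearest genes shared 5 and 6 of 6 under a prior count of 0.5 and a mean CPM of 1. Of 216 values for single members, 2 moved, both after thinning: the mean log2 CPM of Nlrp4b was 4.64 and that of Nlrp4c 4.05, since the offset stands higher in thinned libraries. No paired analysis was possible because the embryos form 1 group. Depth limits embryos 1, 3 and 6 most, where by counting error alone a gene with 0 counts may stand at 2.62, 4.13 and 21.5 CPM.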
